A study of Mus musculus with 12 samples.

Results

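Lx elements are the rodent-specific L1 (LINE-1) retrotransposons whose names begin with Lx in the repeat annotation. They were taken as every copy of repeat family L1 with such a name in the deposited table of counts, and the copies were summed by name into 21 subfamilies. The 21 subfamilies held 345992 of the 5138235 repeat copies in the table, or 6.73%. Total RNA and ribosome footprints, the short RNA pieces that ribosomes protect from nuclease, were read in whole testes of postnatal day 16 mice of strain C57BL/6. The control testes were *Mael*+/-, so the controls carried a null allele of *Mael* too, and the others were *Mael*-/-. The labels name 3 replicates of each genotype, and each extract gave an RNA library and a footprint library, 12 libraries in all. All extracts contained cycloheximide, which holds ribosomes on the RNA.

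L1 elements copy themselves through an RNA with a pair of open reading frames, for ORF1p, which coats the RNA, and for ORF2p, which cuts DNA and reverse transcribes. In the germ line, piRNAs (small RNAs bound by PIWI proteins) direct DNA methylation to L1 promoters and cleave L1 RNA, and Maelstrom, the product of *Mael*, is needed for this control in male meiosis. The Lx lineage spread early in the history of the mouse and rat group, and its copies in the mouse genome are mostly truncated and mutated. The young subfamilies L1Md_T, L1Md_A and L1Md_Gf still move in mice, whereas the L1M and HAL1 elements are older than the rodents. Lx thus stands between a mobile and an ancient class of L1. The table names each copy by a running number without a position, so Lx copies could not be placed relative to genes and no Lx sequence was read.

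*Mael* itself had 5045, 4314 and 3800 RNA counts in the *Mael*+/- libraries and 1, 2 and 0 in the *Mael*-/- libraries. Gene counts totalled 13697267 to 27462358 per RNA library and 7609932 to 13233565 per footprint library, and repeats took 7.65 to 10.2% and 10.8 to 13.6% of all counts. *Mael*-/- RNA replicate 1 had the lowest gene total of the RNA libraries and the highest repeat share. Levels are given as CPM, counts per 1000000 gene counts after TMM scaling, so that a change of the repeats did not set their own scale. Markers of germ cells summed to 1159 to 2469 CPM in *Mael*+/- RNA and 1154 to 1545 CPM in *Mael*-/- RNA, and those of Sertoli cells to 5629 to 6390 and 5685 to 6273 CPM. The highest germ cell sum was that of *Mael*+/- replicate 1, in which genes of pachytene spermatocytes also stood above the other libraries, by a median of 1.69 (log2) from the mean of all 6 RNA libraries and 1.32 in footprints. In whole testes, fewer cells of a type and less RNA per cell cannot be told apart.

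Lx was read widely and thinly. Of its copies, 40927 (11.8%) had at least 1 count in any library, against 18.2% of all repeat copies. RNA counts fell on 27246 copies and footprint counts on 26575, and 12894 copies had both, which is 47.3% of the former and 48.5% of the latter. A single count over all 6 libraries was the whole record of 45.6% of the copies with RNA and of 57.7% of those with footprints. At the other end, 1910 copies (7.01%) were detected in all 6 RNA libraries and held 54.2% of the 163557 Lx RNA counts. The corresponding footprint copies numbered 1056 (3.97%), with 37.5% of the 94859 footprint counts. Over all repeats, 10.8% and 5.81% of counted copies were detected in all 6 libraries. The 10 most counted copies took 4.89% of Lx RNA counts and 4.75% of Lx footprint counts, and the 1000 most counted took 45.6% and 38.9%.

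Per 1000 annotated copies, Lx gave 473 RNA counts and 274 footprint counts over the 6 libraries of each assay. The young L1Md subfamilies gave 1166 and 296, other rodent L1 596 and 212, and ancient L1 764 and 385. In footprints, other rodent L1 was thus below Lx. Lengths of copies are not in the table, so these values compare copies and not transcribed bases. The share of copies with any RNA count was 7.87% for Lx, 9.35% for the other rodent L1, 11.3% for ancient L1 and 23.0% for young L1Md. With both genotypes pooled, Lx was the least read of these 4 classes in RNA by both measures. Summed young L1Md RNA was 106 CPM in *Mael*+/- and 697 CPM in *Mael*-/-, and that of Lx 1121 and 1325 CPM. The pooled counts of young L1Md thus came mostly from *Mael*-/-, and this order does not describe the controls alone. Within Lx, the share ran from 6.27% in Lx3A to 9.41% in Lx5.

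Lx8, Lx9 and Lx7 were the most abundant subfamilies, and they also had the most copies (49084, 49110 and 40034). In RNA, Lx8 stood at 218.1, 169.3 and 191.0 CPM in *Mael*+/- replicates 1 to 3 and at 265.7, 201.4 and 201.5 CPM in *Mael*-/-. Lx9 stood at 191.7, 136.3 and 159.3 CPM in *Mael*+/- and at 227.0, 165.0 and 157.6 CPM in *Mael*-/-. Lx7 stood at 138.4, 96.3 and 114.5 CPM in *Mael*+/- and at 171.5, 126.4 and 115.6 CPM in *Mael*-/-. In each of the 3, *Mael*-/- replicate 1 was the highest library, *Mael*+/- replicate 2 the lowest, and the genotypes overlapped. The rest went down without a break to Lx2A, the smallest subfamily with 1363 copies, at 3.63 ± 0.76 (SD, n = 3) in *Mael*+/- and 4.49 ± 1.27 CPM in *Mael*-/-. Across the 21 subfamilies, the mean log2 levels in RNA and footprints went together, with Pearson's r of 0.98 and Spearman's rho of 0.97. These 21 points share libraries and copy number, so the correlation is a description only.

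**Figure D1:**
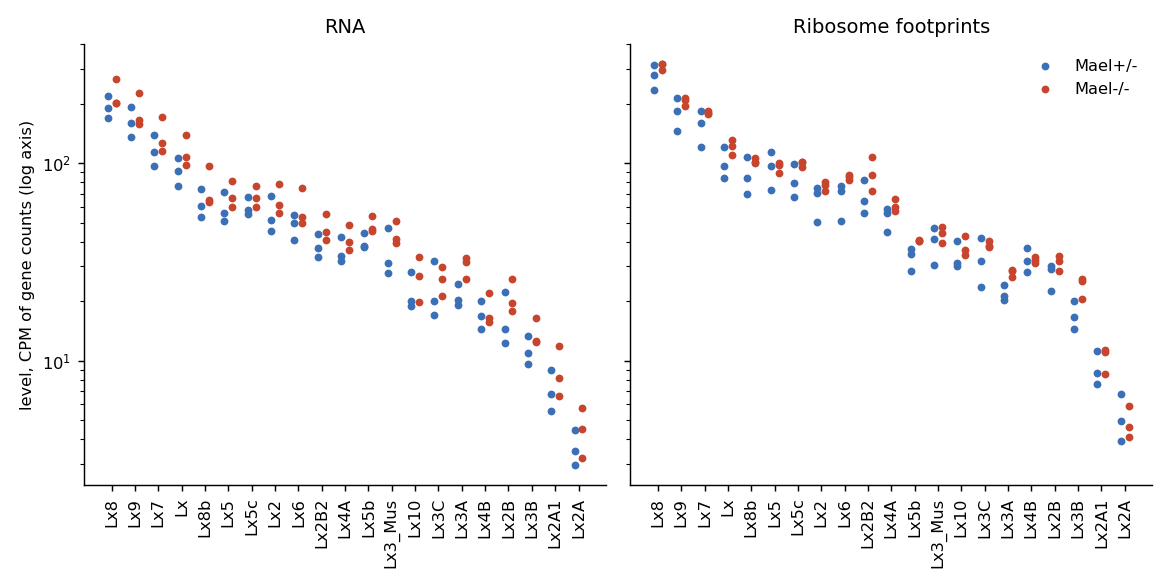
Level of each Lx subfamily in CPM of gene counts (log axis) in every RNA library (left) and footprint library (right), with *Mael*+/- in blue and *Mael*-/- in red, ordered by mean level over all 12 libraries. Each point is 1 library. The genotypes overlapped in 19 of 21 subfamilies in RNA and in 17 of 21 in footprints.

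The first comparison asked whether Lx RNA was higher in testes without Maelstrom. None of the 21 subfamilies passed the test, edgeR's quasi-likelihood F-test with Benjamini-Hochberg adjustment over all 1114 repeat subfamilies tested, of which 10 passed (0.898%). DESeq2 also called none of the 21, and an unadjusted p under 0.05 was reached by 1 of them (4.76%, against 5.57% of all subfamilies). The log2 fold change was above 0 in all 21, with a median of 0.26 and a range from 0.07 to 0.51, while 69.7% of all subfamilies were above 0 and their median was 0.10. Standard errors were 0.18 to 0.26, so the 95% interval held 0 for all but 1 subfamily. Groups did not overlap for 2 of 21, Lx5b and Lx3A, both higher in *Mael*-/-, against 9.43% of all subfamilies with that pattern. When repeat totals rather than gene totals set the scale, the median of all subfamilies moved down by 0.10, Lx4B turned negative, and the Lx median stood 0.15 above it in place of 0.16.

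Lx3A had the highest fold change in RNA. It read 24.4, 19.1 and 20.2 CPM in *Mael*+/- and 33.0, 31.6 and 25.8 CPM in *Mael*-/-, so that every *Mael*-/- library lay above every *Mael*+/- library. Its fold was 1.42 (log2 0.51, SE 0.20), with an unadjusted p of 0.0238 in edgeR and an adjusted p of 0.576. With the replicate number as a block, Lx3A alone of the 21 passed (adjusted p = 0.0277 in edgeR), as did 39 rather than 10 of all subfamilies. A single copy, Lx3A_1016, held 19.2% of Lx3A RNA counts. With the top copy of each subfamily left out, the log2 fold change of Lx3A was 0.57 (adjusted p = 0.514 in edgeR). Lx4B had the lowest fold change, with 20.1, 14.5 and 16.8 CPM in *Mael*+/- and 22.0, 16.4 and 15.8 CPM in *Mael*-/- (log2 0.07, SE 0.22). For the 3 most abundant subfamilies the log2 fold changes were 0.21 ± 0.18 (SE) for Lx8, 0.17 ± 0.19 for Lx9 and 0.24 ± 0.20 for Lx7.

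The 21 subfamilies were high or low in the same libraries. *Mael*-/- replicate 1 was the highest RNA library for 20 subfamilies and *Mael*+/- replicate 1 for the other one, Lx3C. *Mael*+/- replicate 2 was the lowest for 20 of them. Deviations from the mean of all 6 libraries had medians of 0.15, -0.36 and -0.18 (log2) in *Mael*+/- replicates 1 to 3 and of 0.40, 0.06 and -0.09 in *Mael*-/- replicates 1 to 3. The library with the largest deviation, *Mael*-/- replicate 1, is the one with the lowest gene total and the highest repeat share. Without it, the median log2 fold change of the 21 was 0.08 and that of Lx9 was -0.01. What part the depth of this library has in the result was not tested.

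In footprints, too, none of the 21 subfamilies passed, by edgeR or by DESeq2, against 19 of 1045 subfamilies in edgeR (1.82%). Unadjusted p values under 0.05 came from 2 of the 21 (9.52%, against 7.46% of all subfamilies). The log2 fold change was above 0 in 20 of 21 (73.9% of all subfamilies), with a median of 0.22 against 0.13 over all. It ranged from -0.08 in Lx2A to 0.49 in Lx3B. Lx3B, a low subfamily, read 20.2, 16.7 and 14.4 CPM in *Mael*+/- and 25.4, 26.0 and 20.5 CPM in *Mael*-/-. The groups did not overlap, and the adjusted p was 0.393 (edgeR, log2 SE 0.20). In all, 4 of 21 subfamilies did not overlap (Lx6, Lx5b, Lx3A and Lx3B), all higher in *Mael*-/-, beside 11.3% of all subfamilies. Without *Mael*+/- footprint replicate 1, both Lx2B2 and Lx3B passed, with log2 fold changes of 0.55 and 0.63. Calls over all subfamilies rose as well, to 44 of 1071 (4.11%). With all libraries, mean Lx2B2 footprints were 67.4 CPM in *Mael*+/- and 88.7 CPM in *Mael*-/-. A single copy, Lx2B2_1623, had 23.5 ± 5.46 and 34.2 ± 18.2 CPM (SD) of these.

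Footprints of Lx8 stood at 314.2, 280.2 and 234.7 CPM in *Mael*+/- and at 317.3, 317.9 and 295.0 CPM in *Mael*-/-. Lx9 footprints stood at 214.3, 183.2 and 145.1 CPM and at 209.1, 213.3 and 195.2 CPM, and Lx7 footprints at 184.0, 159.8 and 120.4 CPM and at 179.6, 183.6 and 176.5 CPM. The *Mael*-/- libraries lay close together and the *Mael*+/- libraries apart, with overlap in all 3. The lowest footprint library was *Mael*+/- replicate 3 for all 21 subfamilies, by a median of 0.38 (log2) under the mean. With repeat totals as the scale, the number of Lx subfamilies above 0 went from 20 to 18, with Lx2A, Lx4B and Lx5 at or below 0, and the median of all subfamilies moved down by 0.14. The fold changes in RNA and in footprints went together only loosely across the 21 subfamilies (Pearson's r 0.36, Spearman's rho 0.25), again over libraries that all the points share.

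Translation efficiency, the change in footprints beyond that in RNA, did not pass for any of the 21 subfamilies in edgeR, nor for any of the 1148 subfamilies tested (0%). DESeq2 called none of the 21 either, and an unadjusted p under 0.05 was reached by 0 of 21 and by 3.14% of all. The median log2 change was -0.02, against 0.03 over all subfamilies, and 7 of 21 were above 0 (54.5% of all). Lx2A was the lowest at -0.36 (95% interval -1.11 to 0.39) and Lx3B the highest at 0.21 (-0.37 to 0.79). For Lx8, the most abundant, the interval was -0.56 to 0.47, so changes smaller than these bounds were not detectable with these libraries.

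**Figure D2:**
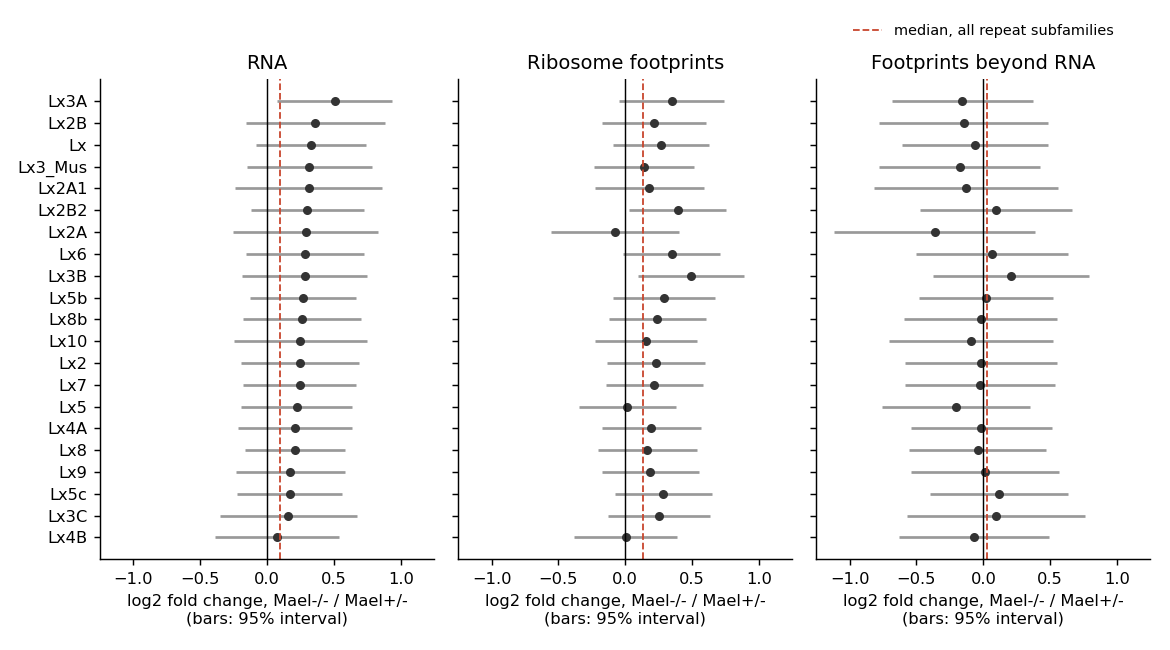
Log2 fold change of *Mael*-/- over *Mael*+/- for each Lx subfamily in RNA, in footprints and in footprints beyond RNA (points, with 95% intervals as bars), ordered by the RNA change. The dashed line marks the median of all repeat subfamilies tested, at 0.10, 0.13 and 0.03, and nearly every interval crosses 0.

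Summed over all 345992 copies, Lx RNA stood at 1320, 956 and 1085 CPM in *Mael*+/- and at 1600, 1230 and 1145 CPM in *Mael*-/-. The means were 1121 ± 185 and 1325 ± 241 CPM (SD, n = 3), a log2 difference of 0.24, and the groups overlapped. A two-sided exact permutation test gave p = 0.4 (0.467 after adjustment over the 7 permutation tests made), where 3 against 3 cannot go below 0.1. Leaving out *Mael*-/- replicate 1 lowered the log2 difference to 0.10, and leaving out *Mael*+/- replicate 1, the library with high pachytene genes, raised it to 0.36. Lx footprints summed to 1739, 1498 and 1206 CPM in *Mael*+/- and to 1733, 1751 and 1671 CPM in *Mael*-/-. Their log2 difference was 0.23 (exact permutation p = 0.3, adjusted 0.42), and it was 0.09 without *Mael*+/- replicate 3 and 0.35 without *Mael*+/- replicate 1.

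The contrast with the young L1Md subfamilies was wide. Young L1Md RNA went from 106 ± 23.8 CPM in *Mael*+/- to 697 ± 177 CPM in *Mael*-/-, and its footprints from 63.5 ± 8.70 to 329 ± 63.3 CPM. L1Md_T, L1Md_A and L1Md_Gf rose in both assays (edgeR, RNA log2 fold changes of 2.46 to 2.89, footprint log2 fold changes of 2.26 to 2.63). The log2 ratio of Lx to young L1Md RNA was 3.33, 3.50 and 3.41 in *Mael*+/- and 0.90, 0.75 and 1.18 in *Mael*-/-, a difference of -2.47. In footprints the ratio was 4.60, 4.54 and 4.47 against 2.34, 2.19 and 2.69, a difference of -2.13. Neither ratio overlapped between genotypes, and each exact permutation test gave 0.1, the smallest p that the design allows (adjusted 0.233). As a share of all L1 counts, Lx went from 30.2, 32.6 and 30.5% in *Mael*+/- RNA to 26.6, 27.3 and 28.6% in *Mael*-/- RNA.

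Against ancient L1, the RNA ratio of Lx was slightly higher in *Mael*-/-. Its log2 values were -0.27, -0.09 and -0.24 in *Mael*+/- and -0.07, -0.01 and -0.02 in *Mael*-/-, which did not overlap (difference 0.17, exact permutation p = 0.1, adjusted 0.233). In footprints the same ratio overlapped, at 0.03, 0.06 and 0.08 against 0.11, 0.12 and 0.08 (exact permutation p = 0.2, adjusted 0.35). Against the 15 other rodent L1 subfamilies, a class that includes L1_Mm and L1Md_F, the ratio of Lx was lower in *Mael*-/- in every library. It was 0.06 ± 0.08 and -0.10 ± 0.09 (log2, SD, n = 3) in RNA, and 0.77 ± 0.01 and 0.63 ± 0.01 in footprints, compared here without a test. The medians of the subfamily fold changes were ordered likewise in RNA, at 0.07 for ancient L1, 0.26 for Lx, 0.40 for other rodent L1 and 2.64 for young L1Md. In footprints they were 0.17, 0.22, 0.38 and 2.41.

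**Figure D3:**
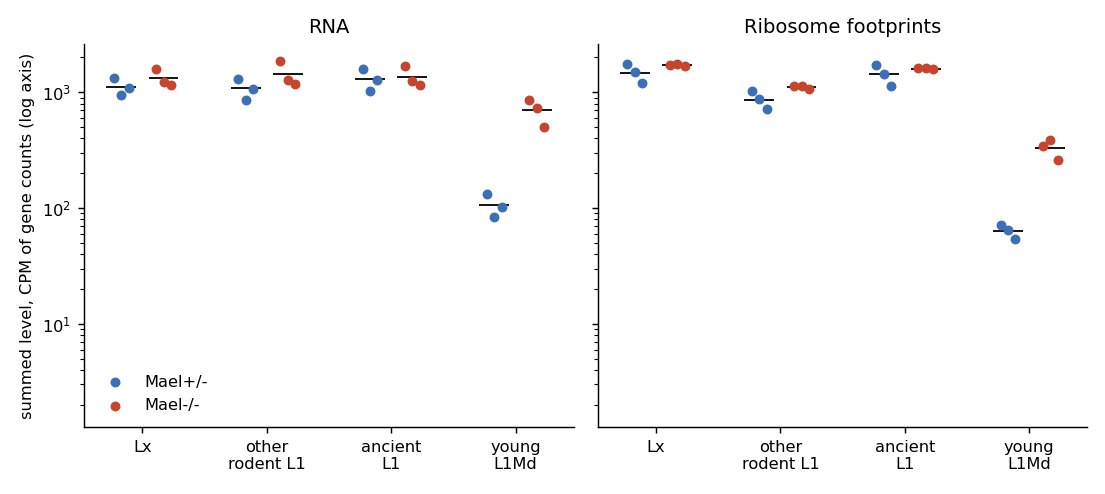
Summed level in CPM of gene counts (log axis) of Lx, other rodent L1, ancient L1 and young L1Md in RNA (left) and footprints (right). Points are libraries, *Mael*+/- in blue and *Mael*-/- in red, and lines are means of 3. Lx and ancient L1 overlapped between genotypes, whereas young L1Md went from 106 to 697 CPM in RNA.

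Relative to genes, Lx stood higher in footprints than in RNA in all 6 extracts. Within an extract, the log2 ratio of footprint CPM to RNA CPM was 0.40, 0.65 and 0.15 in *Mael*+/- and 0.12, 0.51 and 0.54 in *Mael*-/-, which did not differ beyond the spread between extracts (difference -0.01, exact permutation p = 1). The ratio of young L1Md was -0.72 ± 0.29 and -1.07 ± 0.22, that of other rodent L1 -0.31 ± 0.30 and -0.34 ± 0.32, and that of ancient L1 0.15 ± 0.33 and 0.26 ± 0.28. Gene counts, which set the CPM, covered whole mRNAs in RNA libraries and coding sequence in footprint libraries. The level of this ratio therefore depends on that choice, whereas its order among repeats within a library does not.

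Among the 21 subfamilies, the mean ratio over the 6 extracts ran from -0.26 ± 0.15 (SD) in Lx5b to 0.89 ± 0.24 in Lx4B. Both ends rested partly on single copies. Lx2B2 was next to Lx4B at 0.87 ± 0.35 and came down to 0.30 ± 0.19 without its top RNA and top footprint copy. Lx5b went up to 0.11 ± 0.23 without Lx5b_2359, its top copy in both assays, and no subfamily was then below 0. Lx4B came down to 0.66 ± 0.25, still among the highest, beside Lx2B at 0.74.

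**Figure D4:**
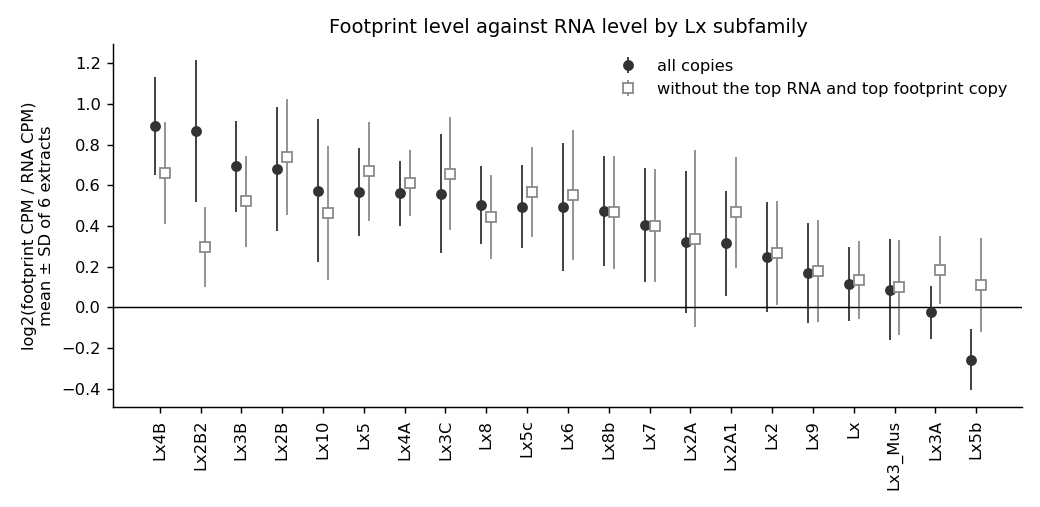
Log2 ratio of footprint CPM to RNA CPM for each Lx subfamily, as the mean of the 6 extracts with the SD as bars. Filled circles use all copies and open squares leave out the copy with the most RNA counts and the copy with the most footprint counts. Without these copies, Lx2B2 drops from 0.87 to 0.30 and Lx5b moves from -0.26 to 0.11.

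The most counted footprint copies differed in how far they were also read in RNA. Lx2B2_1623 had no RNA count in any library, yet 272, 184 and 184 footprint counts in *Mael*+/- and 233, 313 and 453 in *Mael*-/-, which was 35.9% of all Lx2B2 footprints. Lx8_7552 had no RNA count either, with 127, 119 and 217 footprint counts in *Mael*+/- and 248, 183 and 9 in *Mael*-/-. Its 9 counts in *Mael*-/- replicate 3 stood far below the other 5 libraries. Lx4B_2212 was read in both assays, with 59, 59 and 74 against 65, 57 and 33 footprint counts and 19, 24 and 24 against 14, 8 and 19 RNA counts. It made up 18.2% of Lx4B footprints, and its footprint CPM did not overlap between genotypes (7.03 ± 0.70 and 4.84 ± 0.89, adjusted p = 0.962 in edgeR). Of the 653 Lx copies with at least 20 footprint counts, 63 (9.65%) had no RNA count, and 20 of these were Lx8 copies. Over all repeats that share was 24.8%, for ancient L1 it was 12.1%, for other rodent L1 9.57% and for young L1Md 24.2%. In the other direction, 34 of 1464 Lx copies with at least 20 RNA counts (2.32%) had no footprint count, against 3.45% of ancient L1, 9.95% of other rodent L1, 37.6% of young L1Md and 12.9% of all repeat copies. Lx9_42587 was the most counted of them, with 64, 30 and 65 RNA counts in *Mael*+/- and 42, 52 and 71 in *Mael*-/-. Footprint libraries hold much shorter fragments than RNA libraries, and whether reads that match several copies were placed alike in both is not stated for these libraries, so the part of read placement was not tested.

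The most abundant Lx copies in RNA differed little between genotypes. Lx5b_2359 had 217, 325 and 297 RNA counts in *Mael*+/- and 197, 294 and 442 in *Mael*-/-, and it held 29.7% of all Lx5b RNA counts. Scaled, it was 10.8 ± 1.28 and 15.0 ± 0.97 CPM, without overlap but short of the threshold (log2 0.47, SE 0.20, adjusted p = 0.429 in edgeR). The whole Lx5b subfamily had means of 40.1 and 48.4 CPM, so this copy made up a large part of its difference. The next copy was Lx5b_5701, with 202, 192 and 162 counts against 95, 130 and 160 (log2 -0.19). Lx9_38034 had 141, 169 and 183 RNA counts against 68, 118 and 154 (log2 -0.22), with every *Mael*-/- library below every *Mael*+/- library in CPM. Lx5_3007 (126, 184 and 146 against 60, 121 and 162) and Lx5c_6793 (73, 198 and 119 against 70, 109 and 176) overlapped, with log2 fold changes of -0.11 and 0.18.

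Of single copies, 403 of the 345992 passed the default filter on low counts in RNA, and 7 were called, all higher in *Mael*-/- (1.74%, against 1.51% of the 16710 repeat copies tested that were called higher and 1.62% called in either direction). The share of Lx copies called was thus near that of all repeat copies, but the latter includes young L1Md, with 93 of 110 copies called higher. Outside Lx and young L1Md, 153 of 16197 copies were called higher. Other rodent L1 had 25 of 461 called higher and ancient L1 had 0 of 405. An unadjusted p under 0.05 was reached by 5.96% of Lx copies and 9.13% of all. The median log2 fold change was 0.10 over the 403 and 0.12 over all. All 7 called copies passed the filter through their *Mael*-/- counts, so the count of 7 is no measure of Lx as a class. For the same reason, the adjusted p values of single copies given next describe those copies and are no independent support. Lx2A_1134 had 1, 1 and 1 RNA counts in *Mael*+/- and 15, 18 and 13 in *Mael*-/- (log2 4.16, SE 0.69, adjusted p = 0.000385 in edgeR). Lx3_Mus_11509 had none in *Mael*+/- and 7, 23 and 25 in *Mael*-/-, at least 7.25-fold higher when *Mael*+/- is set at 3 counts per library (adjusted p = 3.99e-05 in edgeR). Both were high in all 3 *Mael*-/- libraries and at or next to 0 in every control.

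Of the other called copies, 3 were Lx5 copies. Lx5_11209 had 1, 0 and 0 RNA counts in *Mael*+/- and 8, 15 and 18 in *Mael*-/-, Lx5_6006 had 0, 5 and 1 against 10, 17 and 12, and Lx5_7595 had 1, 4 and 2 against 9, 12 and 15. Lx8b_5832 had 2, 0 and 2 RNA counts against 9, 17 and 24, and Lx_5114, a copy of the subfamily named Lx alone, had 4, 9 and 8 against 14, 24 and 28. Footprints of Lx5_11209, Lx5_7595 and Lx8b_5832 were found in all 3 *Mael*-/- libraries, at 4, 5 and 1, at 4, 3 and 1, and at 4, 9 and 3 counts, and in no *Mael*+/- library. Lx2A_1134 had no footprint in any library. Without *Mael*+/- RNA replicate 1, 14 of 544 Lx copies were called (2.3% of all repeat copies tested), and without *Mael*-/- RNA replicate 3, 11 of 505 (1.89% of all). Lx5_7595 lost its call in 4 of the 6 fits that left out a library, Lx5_6006 in 3 and Lx_5114 in 1. None of the 7 reached a mean of 20 counts, and with that filter none of the 126 Lx copies tested was called, where 44 of 5454 repeat copies (0.807%) were, so that few of 126 would be called at the share of all copies.

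In footprints, 123 Lx copies were tested and 1 was called, Lx5_14913, lower in *Mael*-/- (0.817% of the 5511 repeat copies tested were called in either direction and 0.254% were called lower). It passed the filter through its *Mael*+/- counts. It had 92, 13 and 28 footprint counts in *Mael*+/- and none in *Mael*-/-, at least 16.1-fold lower against 3 counts per library (adjusted p = 0.000211 in edgeR). Its RNA followed, with 55, 8 and 11 counts in *Mael*+/- and none in *Mael*-/-, at least 6.49-fold lower. The default filter left it out of the RNA test when all 6 libraries entered. Lx copies lower in *Mael*-/- RNA were called in 4 of the 6 fits that left out a library, 1 or 2 in each. Lx5_14913 and Lx3_Mus_10048 were called lower without *Mael*-/- replicate 1 (0.163% of all repeat copies were called lower) and without *Mael*-/- replicate 2 (0.109%). Lx_20016 and Lx10_6086 were called lower without *Mael*+/- replicate 2 (0.242%), and Lx10_6086 without *Mael*+/- replicate 3 (0.135%). With a mean of at least 5 counts as the filter, an alternative chosen after seeing the data, 10 of 860 Lx copies were called higher and 4 lower in RNA, against 1.1% and 0.22% of all repeat copies (1.32% together). The 4 lower copies were Lx5_14913, Lx3_Mus_10048 (46, 3 and 11 RNA counts against none), Lx_20016 (25, 1 and 12 against 0, 1 and 0) and Lx9_31514 (19, 2 and 10 against none). All 4 passed that filter through their *Mael*+/- counts, so these RNA calls are a description. The footprint call of Lx5_14913, which passed its filter in the same way, is a description as well. All 4 were highest in *Mael*+/- replicate 1, where the pachytene genes were high as well, and whether the stage of the germ cells has a part in these counts was not tested. In footprints it gave 2 of 345, Lx5_14913 and Lx3_Mus_10048, both lower (0.91% of all were called and 0.524% were lower), and the same 2 were called by the default filter without *Mael*+/- footprint replicate 2 (0.97% of all were called) or without *Mael*-/- footprint replicate 3 (0.958%).

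**Figure D5:**
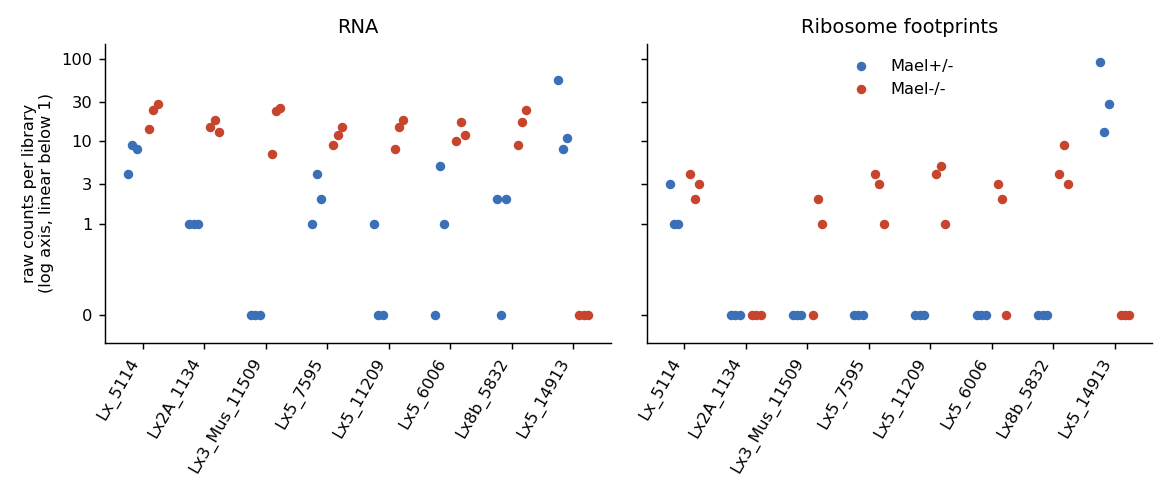
Raw counts per library (log axis, linear below 1) of the 8 single Lx copies called in RNA or footprints, with *Mael*+/- in blue and *Mael*-/- in red. Points of a genotype are replicates 1 to 3 from left to right. The first 7 copies lie higher in *Mael*-/- RNA, and Lx5_14913 was at 0 in all 6 *Mael*-/- libraries.

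A copy can also be seen in 1 genotype alone, taken here as more than 3 counts in every library of that genotype and none in the other, within an assay. In RNA, 9 Lx copies were of this kind in *Mael*-/- and 3 in *Mael*+/-, beside 216 and 36 of all repeats, of which young L1Md took 147 and 0. In footprints, Lx had 2 and 1, all repeats 38 and 21, and young L1Md 20 and 0. Copies with any count numbered 40927 in Lx and 935884 over all repeats, and a difference in share was not tested. Lx_15670 was the only one that met this rule in *Mael*-/- in both assays. It had 5, 21 and 13 RNA counts and 9, 7 and 7 footprint counts in *Mael*-/- and none in *Mael*+/-, at least 5.32-fold and 2.21-fold higher. Lx6_8003 had 4, 13 and 6 RNA counts with 3, 14 and 7 footprint counts, and Lx4A_2051 had 10, 9 and 7 with 3, 9 and 1, in *Mael*-/- alone. The remaining 6 in *Mael*-/- RNA were Lx_21532, Lx_15649, Lx10_2682, Lx3_Mus_11509, Lx3A_2751 and Lx7_28035, and those found in *Mael*+/- RNA were Lx_3327, Lx5_14913 and Lx9_37706. The copies of this kind in RNA come from 9 subfamilies in all. Copies named in this paragraph were chosen by their counts, so these values are a description.

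Of 30 genes that silence transposons, 29 were in the table, among them the PIWI genes *Piwil1*, *Piwil2* and *Piwil4* and the DNA methylation genes *Dnmt3a*, *Dnmt3b* and *Dnmt3l*. In each assay, 1 of the 29 fell, *Mael* itself (adjusted p = 3.53e-07 in RNA and 3.31e-05 in footprints, edgeR), and it was also the only 1 of all genes tested that fell (0.00683% in RNA and 0.00741% in footprints). The median log2 fold change of the 29 was -0.15 in RNA and -0.21 in footprints, beside medians close to 0 over all genes. In RNA, 24 of the 29 were below 0, against 50.4% of all genes. Their median deviation in RNA was highest in *Mael*+/- replicate 1, at 0.36. It was 0.09 and -0.06 in the other *Mael*+/- libraries and -0.11, -0.03 and -0.12 in the *Mael*-/- libraries. Of 15 pachytene genes, 14 were in the table and 12 were tested in RNA. The edgeR test called 0 of the 12, with 7 at an unadjusted p under 0.05 (5.39% of all genes) and a median log2 fold change of -1.31. That median goes with *Mael*+/- replicate 1, whose median deviation was 1.69, against -0.25 and -0.04 in the other *Mael*+/- libraries and -0.37, -0.46 and -0.52 in the *Mael*-/- libraries.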

How the data were processed

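RNA and ribosome footprints were measured in 3 *Mael*+/- and 3 *Mael*-/- replicates of testes, as the labels give them, without a sequencing batch or date. Whether each replicate is a single mouse is not stated. The authors prepared stranded total RNA libraries after depletion of rRNA, and footprint libraries from extracts digested with MNase. They clipped linkers, removed rDNA reads (Bowtie 1.2.2), mapped to mm10 (STAR 2.6.0c) and counted with featureCounts (Subread 1.6.4), over whole mRNAs for RNA and coding sequence for footprints. How reads were assigned to repeat copies (multiple matches, strand, overlap with genes), and whether duplicates were collapsed, is not given in the sources used here for these libraries. The table deposited by the authors holds raw counts, not normalized, for 20620 genes and 5138235 repeat copies. Their DESeq2 1.24.0 result tables (log2 fold changes, standard errors and p-values) were not used.

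Here, counts were summed by subfamily and tested with edgeR 4.0.16 in R 4.3.3 (quasi-likelihood F-test, filterByExpr, Benjamini-Hochberg over all repeat subfamilies or all single copies), with library sizes and TMM factors from genes, computed within an assay. Calls were made at an adjusted p under 0.05. Translation efficiency was tested as an interaction term, genotype by assay, in a fit to the 12 libraries. Summed levels and ratios of L1 classes were compared by two-sided exact permutation tests (numpy 2.4.6). RNA and footprint libraries of an extract deviated together (r across genes 0.70, 0.53 and 0.52 in *Mael*+/- and 0.21, 0.18 and 0.17 in *Mael*-/-, all above 0.1), so they were treated as pairs in an alternative fit. The scripts were tested on simulated data. Folds against a group at 0 used 3 counts per library, and intervals and bounds cover the deposited counts, which may include duplicate reads. No 2 libraries held identical counts. Text values were given for the 3 most abundant subfamilies, the highest and lowest fold change in RNA, the most abundant copies (5 in RNA, 3 in footprints) and every called copy. Copies read in a single assay or genotype, copies called only under an alternative, Lx3B, Lx2B2 and Lx2A were named after their values were seen. Members, classes of L1 and gene lists were chosen with earlier results of these data known. Alternatives were DESeq2 1.42.0, other scaling and filters, a replicate block and each library left out. Fits without copies that lack RNA counts, and the filter at a mean of 5 counts, were added after seeing the data.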

Additional observations from a re-analysis of the deposited data

How the results depend on the processing

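In RNA, the count of Lx subfamilies called was 0 under DESeq2, median-of-ratios factors, no filter, repeat totals as the scale, the top copy of each subfamily left out, and each library left out. It was 1, Lx3A (log2 0.51), with the replicate block. Same-numbered replicates of the 2 genotypes share only a number (r of 0.14, 0.01 and 0.06 in RNA, and of 0.07, 0.17 and 0.03 in footprints), and not every library correlated best with its own number. The block changed no other count of Lx calls. Over all subfamilies, calls in RNA were 10, and 39 with the block and 17 with repeat totals. In footprints they were 19, and 10 by DESeq2 and 7 with repeat totals. Leaving out 1 library gave 0 to 2 called Lx subfamilies in footprints, 0 in RNA and 0 in translation efficiency. The median log2 change of the 21 then lay between 0.08 and 0.41 in RNA, between 0.07 and 0.34 in footprints, and between -0.18 and 0.12 in translation efficiency. Lx9 RNA lay between -0.0133 and 0.31, Lx4B RNA between -0.0947 and 0.20, and Lx4B footprints between -0.0901 and 0.11. Repeat totals put Lx4B at -0.0296 in RNA and -0.13 in footprints. Called single copies numbered 6 to 14 in RNA (0 to 2 of them lower in *Mael*-/-) and 1 or 2 in footprints when 1 library was left out. A filter at a mean of 20 counts gave 0 in RNA (fewer copies tested), and one at 5 counts gave 14 in RNA and 2 in footprints (more copies tested). The difference of the footprint to RNA ratio between genotypes was -0.01, and 0.0034 without copies that lack RNA counts, and it ran from -0.13 to 0.13 with an extract left out, so its direction is not determined. The other causes were not tested. Fits restricted to copies outside genes or exons were not run, since the table gives no positions. Counts were high enough to test 403 of the 345992 single copies in RNA and 123 in footprints.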
